A study of Mus musculus with 4 samples.

Results

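The proteasome genes measured here are those whose symbol begins with Psma, Psmb, Psmc, Psmd, Psme or Psmf and a number and that have a probe set with a single symbol in the array annotation, with the brightest probe set used where a gene had several. There were 46 such genes among the 19938 genes with a single-symbol probe set. Of these, 44 encode subunits, assembly chaperones or regulators of the proteasome, and 2 match by symbol alone: Psmc3ip, which encodes a protein of meiotic recombination, and Psme3ip1, which encodes a partner of the PA28 gamma activator. All 46 lay above the filter on dim probe sets and were tested. The choice of genes used no measured value other than brightness between probe sets of a gene.

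The arrays held RNA from 3 hearts of mice without MAFbx and from 1 heart of a wild type mouse. MAFbx (atrogin-1, gene Fbxo32) is the substrate-binding F-box protein of a muscle ubiquitin ligase. Every animal, wild type included, had undergone transverse aortic constriction (TAC), an operation that tightens the aorta so that the heart pumps against raised pressure, 1 week before RNA was taken, so no unloaded heart enters any comparison. The sources used here give no strain, age, sex or design of the knockout allele. Nothing in them says outright that the numbered hearts are separate animals. Sex-linked RNA, given below, set knockout 3 apart from knockouts 1 and 2, so it came from a different animal. Whether knockouts 1 and 2 were separate animals is not stated, so the spread behind the p-values may be technical in part.

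The proteasome degrades proteins that ubiquitin ligases such as MAFbx have marked with ubiquitin. Its core is a barrel of alpha and beta rings, with the proteolytic sites inside the beta rings, and a regulatory particle of a base and a lid caps the barrel, receives tagged proteins, removes the ubiquitin and unfolds the substrate. Under interferon the catalytic beta subunits can be exchanged for the immunoproteasome subunits, and activators of the PA28 and PA200 families can replace the regulatory particle. In heart muscle the system takes part in the turnover of sarcomere proteins.

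The targeted gene Fbxo32 read 5.65, 5.61 and 5.56 in the knockout hearts, against 7.54 in the wild type heart (RMA values, log2 scale; log2 fold change, knockout minus wild type, -1.93, SE 0.17, limma adjusted p = 0.0573). The 4 arrays had nearly equal medians, from 6.57 to 6.62. All 10 cardiomyocyte markers were measured, and Myh6, the main myosin of adult mouse heart, read 13.28, 13.26 and 13.23 in knockout hearts, against 13.12 in the wild type heart. The arrays also differed in sex-linked RNA: Xist read 9.18 and 9.52 in knockouts 1 and 2 and 3.20 in knockout 3, against 4.13 in wild type 1. Y-linked genes ran the other way. Eif2s3y read 3.31, 3.64 and 8.49 in knockouts 1, 2 and 3, against 8.57 in wild type 1. Uty read 2.46, 3.47 and 6.66, against 6.57, and Kdm5d 4.49, 4.65 and 6.30, against 6.14. Knockouts 1 and 2 thus read as female and knockout 3 and wild type 1 as male, so sex is partly confounded with genotype. The difference of knockout 3 from wild type 1, both with low Xist, is therefore given for the members as a set and for some genes and classes.

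No proteasome gene passed the limma test between genotypes over all genes. With Benjamini-Hochberg adjustment 0 of the 46 passed an adjusted p of 0.05, where the background was 0.00599% (1 gene of 16708, the heme oxygenase gene Hmox1), and the lowest adjusted p among them was 0.899 by limma. Without adjustment, 0 members were lower and 0 higher at a limma p under 0.05, against 3.87% of all genes lower and 1.72% higher. The log2 fold changes ran from -0.54 for Psmd14 to 0.40 for Psme4, and the 95% intervals of 45 members lay within 1 log2 unit of zero (a 2-fold difference either way), as did those of 90.8% of all genes. The exception was Psmd14, whose interval reached -1.10. With 1 wild type array, its spread was taken from the knockout arrays, and an exact permutation test of 1 array against 3 could not give a p below 0.25.

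Counted by position, 11 of the 46 members were lower in each knockout heart than in the wild type heart, a share of 23.9% against a background of 24.2%. In each knockout heart 7 members were above the wild type value, 15.2% against a background of 24.2%. Without knockout 2, 23 members were below (50%), against 31.3% of all genes, and 7 above (15.2%), against 31.5%. Without knockout 3, 13 were below and 13 above (28.3% each), against 34.9% and 35.3% of all genes. The balance of members below and above also turned with the scaling, to 7 below and 10 above with arrays centred on their medians (20.2% and 30.3% of all genes) and to 9 below and 10 above with repeated quantile normalization (23.2% and 27.5% of all genes). The median log2 fold change of the members was -0.07, against 0.0033 over all genes tested. Taken alone, knockout 3 was below wild type 1 for 34 of the 46 members (73.9%), against 49.7% of all genes. Its median difference was -0.215 over the members and 0 over all genes. Knockout 1 was below wild type 1 for 26 members (56.5%), against 48.1% of all genes. Knockout 2 was above it for 29 members (63%), against 48.5%. For 39 members the range among the 3 knockout hearts was wider than the difference between genotypes (84.8%), as for 76.1% of all genes.

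**Figure D1:**
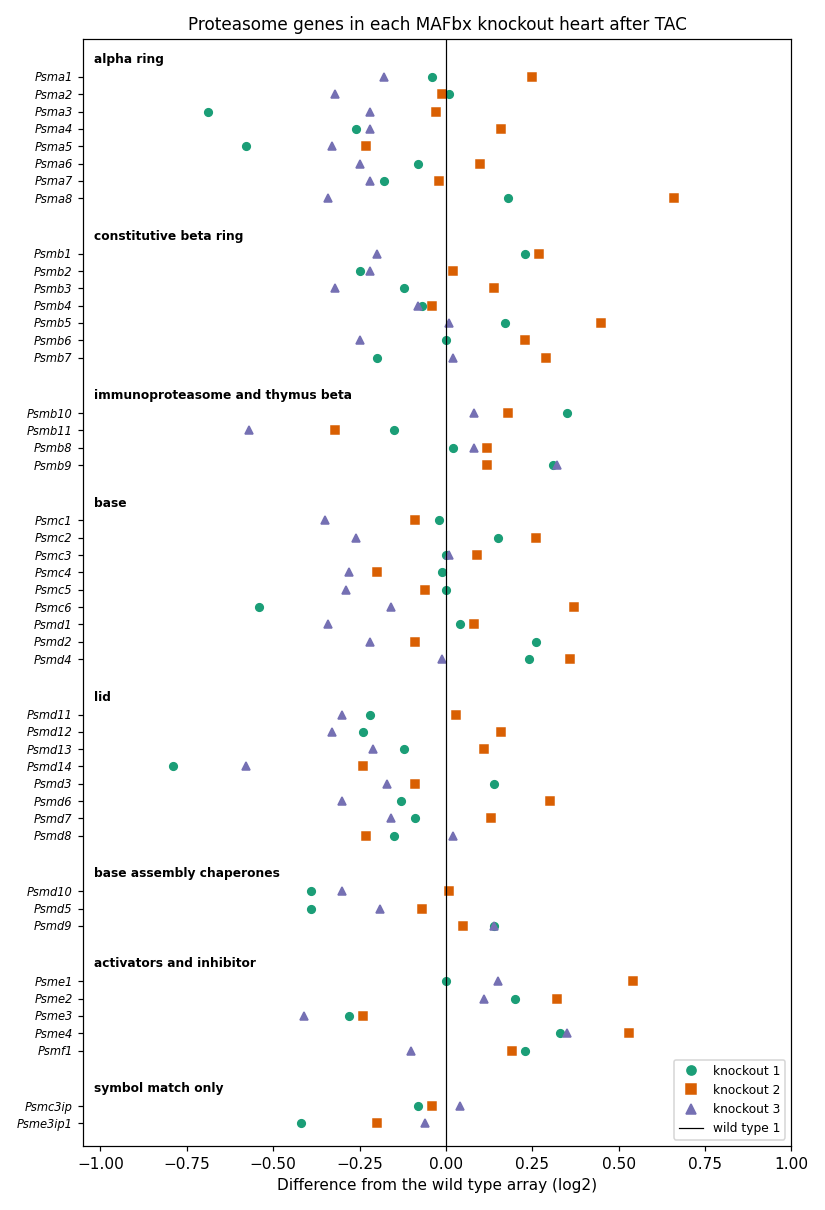
Difference of each knockout heart from the wild type heart (x axis, log2) for the 46 proteasome genes (rows, grouped by place in the particle); each row has 1 point per knockout heart and the vertical line is the wild type array. Psmd14 lies left of the line in all 3 hearts and Psme4 right of it, while 28 rows do not have all knockout hearts on 1 side.

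Knockout 2 read above knockout 3 for 41 of the 46 proteasome genes (89.1%), against 49.1% of all genes. It also read above knockout 1, the other heart with high Xist, for 34 of the 46 (73.9%), against 47.6% of all genes. The median of knockout 2 minus knockout 1 was 0.17 over the members and -0.01 over all genes. Of the 46, 25 had their highest value in knockout 2 (54.3%), where 23.2% of all genes had theirs, and 25 had their lowest value in knockout 3 (54.3%), against 24.2% of all genes. Both held at once for 14 members (30.4%) and for 8.19% of all genes. The median of knockout 2 minus knockout 3 was 0.27 on the log2 scale over the members and 0 over all genes. Knockout 2 exceeded knockout 3 by at least 0.3 in 20 members (43.5%) and in 2458 of the 16708 genes tested, and knockout 3 exceeded knockout 2 by as much in 0 members and in 2592 genes. These hearts share a genotype and a treatment, so this is a difference between samples of 1 group. Knockouts 2 and 3, but not knockouts 1 and 2, also differed in the sex read from sex-linked RNA. The pattern was not among the planned comparisons and is given without a test.

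Marker genes differed between these hearts as well. Knockout 2 read above knockout 3 for 9 of 10 cardiomyocyte markers, whose summed level (linear scale) was 87800, 89600 and 83790 in knockouts 1, 2 and 3, against 84190 in wild type 1. For 7 of 8 fibroblast markers and 7 of 8 endothelial markers knockout 2 read below knockout 3. The summed fibroblast level was 8388, 11450 and 19900 in the knockout hearts and 13330 in the wild type heart, and the summed endothelial level 3357, 3644 and 4453 in the knockout hearts and 3215 in the wild type heart. The fibroblast markers did not move together. Dcn and Lum were above the wild type value in each knockout heart (25%) and Pdgfra below (12.5%), against 24.2% of all genes on each side. The other 5, the collagen genes among them, lay on both sides. Of 5 erythroid markers 2 were measured, with summed levels of 330.8, 244.9 and 299.5 in knockout hearts and 289.8 in the wild type heart. In whole heart RNA fewer cells of a type and less RNA per cell cannot be told apart. The part of cell composition, or of the Xist difference, in the proteasome values was not tested.

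**Figure D2:**
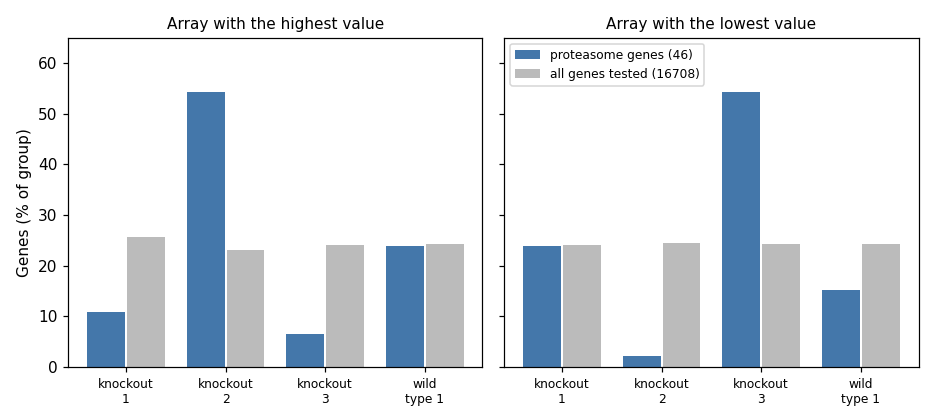
Share of genes (y axis, % of group) that had their highest value (left panel) or lowest value (right panel) on each of the 4 arrays, for the 46 proteasome genes and for all 16708 genes tested. Proteasome genes peaked in knockout 2 in 54.3% of cases and were lowest in knockout 3 in 54.3%, while each array took from 23.2% to 25.7% of all genes in either panel.

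Promoter sequence was read for the members as a property that the choice of genes did not use. RefSeq windows of 300 bases, 250 before and 50 after the annotated start (GRCm38.p6), were found for 37 of the 44 proteasome genes. Shown here are the stretches from 100 bases before to 50 after the start for Psme4 and Psmd14, the genes with the largest positive and negative differences, for Psmb5 and Psmb6, catalytic genes whose window holds the same antioxidant core as that of Psme4, and for Psme1, whose window holds an interferon core. Capitals mark TGACNNNGC, the core of the antioxidant element bound by the Nrf1 and Nrf2 factors, in Psmb5, Psmb6 and Psme4, GAAANNGAA, a core of the interferon response element, in Psme1, and CCAAT, on both strands and overlapping, in Psmd14. In Psme4 and Psme1 the match lies on the opposite strand, so the capitals there show its reverse complement. The stretches lie at chr11:30771675-30771824 (plus strand), chr2:61711594-61711743 (plus strand), chr14:54617946-54618095 (minus strand), chr11:70525257-70525406 (plus strand) and chr14:55578394-55578543 (plus strand), each written 5′ to 3′ along its gene.
Psme4: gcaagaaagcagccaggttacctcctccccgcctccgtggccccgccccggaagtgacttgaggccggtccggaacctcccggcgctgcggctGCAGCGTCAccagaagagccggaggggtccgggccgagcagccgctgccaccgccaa
Psmd14: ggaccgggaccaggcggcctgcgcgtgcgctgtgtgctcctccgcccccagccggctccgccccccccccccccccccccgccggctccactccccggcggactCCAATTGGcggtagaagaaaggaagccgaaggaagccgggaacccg
Psmb5: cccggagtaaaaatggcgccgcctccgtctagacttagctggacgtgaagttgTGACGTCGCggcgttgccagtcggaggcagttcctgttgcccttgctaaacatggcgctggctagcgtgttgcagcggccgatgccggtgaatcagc
Psmb6: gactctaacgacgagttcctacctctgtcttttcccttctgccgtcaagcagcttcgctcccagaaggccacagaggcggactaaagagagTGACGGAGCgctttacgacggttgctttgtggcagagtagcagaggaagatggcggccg
Psme1: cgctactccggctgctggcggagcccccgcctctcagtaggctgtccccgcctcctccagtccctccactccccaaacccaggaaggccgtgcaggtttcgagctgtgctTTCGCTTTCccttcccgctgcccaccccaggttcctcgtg

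Motifs were searched on both strands, and a gene counted as holding one if any of its windows did. TGACNNNGC was in the windows of 6 of 37 proteasome genes (16.2%: Psmb5, Psmb6, Psmc6, Psmd9, Psmd12 and Psme4), against 14% of 27025 genes. GAAANNGAA was in those of 6 (16.2%: Psmb3, Psmb4, Psmc2, Psmd4, Psmd9 and Psme1), against 9.76% of genes. CCAAT was in those of 14 (37.8%), against 41.1% of genes, and GTGACGT in those of 3 (8.11%: Psma1, Psma5 and Psmb5), against 4.32%. In Psmb5 GTGACGT overlaps the antioxidant core, which begins 47 bases before the start, and in Psmb6 that core begins 9 bases before the start. The genes that share TGACNNNGC did not share a direction between genotypes: their log2 fold changes were 0.21 for Psmb5, -0.01 for Psmb6, -0.11 for Psmc6, 0.11 for Psmd9, -0.14 for Psmd12 and 0.40 for Psme4. The windows of Psmb8, Psmb9, Psmb10 and Psme2 held no match to GAAANNGAA, which says only that these letters are not in these windows.

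The alpha ring, which gates the entrance of the barrel, had all 8 of its genes higher in knockout 2 than in knockout 3. Its median log2 fold change was -0.11, with 3 genes below the wild type value in each knockout heart (37.5%) and 0 above. Of all genes 24.2% lay on each side. Psma5 read 8.51, 8.86 and 8.76 in knockout hearts, against 9.09 in the wild type heart, so the groups did not overlap (log2 fold change -0.38, SE 0.20, limma adjusted p = 0.935). Its dimmer probe set gave -0.16, with knockout 2 above the wild type value, so there the groups overlapped. Psma3 read 9.11, 9.77 and 9.58 in knockout hearts, against 9.80 in the wild type heart, and knockout 2 lay within 0.03 of the wild type value (log2 fold change -0.31, SE 0.27, limma adjusted p = 0.965). Psma7, the third gene below the wild type array throughout, had a log2 fold change of -0.14. Psma1 read 9.91, 10.20 and 9.77 in knockout hearts around 9.95 in the wild type heart (log2 fold change 0.01, SE 0.22), and its sign turned without knockout 2. The testis-specific alpha subunit gene Psma8 read 4.70, 5.18 and 4.18 in knockout hearts, against 4.52 in the wild type heart, close to the filter level of 4.10 (log2 fold change 0.17, SE 0.35, also turned without knockout 2). Psma2, Psma4 and Psma6 had log2 fold changes of -0.11, -0.11 and -0.08, with knockout hearts on both sides of the wild type value.

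The constitutive beta ring holds the 3 proteolytic subunits of the standard proteasome, encoded by Psmb5 (cleavage after hydrophobic residues), Psmb6 (after acidic residues) and Psmb7 (after basic residues). Psmb5 read 8.57, 8.85 and 8.41 in knockout hearts, against 8.40 in the wild type heart. All 3 knockout hearts lay above the wild type heart, knockout 3 by only 0.01 (log2 fold change 0.21, SE 0.22, limma adjusted p = 0.97). Psmb6 read 10.03, 10.26 and 9.78 in knockout hearts, against 10.03 in the wild type heart, which lies inside their range (log2 fold change -0.01, SE 0.22, positive with centring or repeated quantile normalization). Psmb7 read 10.63, 11.12 and 10.85 in knockout hearts around 10.83 in the wild type heart (log2 fold change 0.04, SE 0.23). Psmb1 to Psmb4 encode beta subunits without a proteolytic site. Psmb1 read 9.08, 9.12 and 8.65 in knockout hearts around 8.85 in the wild type heart (log2 fold change 0.10, SE 0.23). Psmb2 read 8.92, 9.19 and 8.95 in knockout hearts, against 9.17 in the wild type heart, which knockout 2 passed (log2 fold change -0.15, SE 0.19). Psmb3 read 9.97, 10.23 and 9.77 in knockout hearts around 10.09 in the wild type heart (log2 fold change -0.10, SE 0.22), and its dimmer probe set gave 0.12. Psmb4 varied least among the members, at 9.76, 9.79 and 9.75 in knockout hearts, against 9.83 in the wild type heart (log2 fold change -0.06, SE 0.17). In the ring as a whole 1 of 7 genes lay above, 1 below (14.3% each, against 24.2% of all genes) and 5 on both sides. The median log2 fold change was -0.01, and all 7 read higher in knockout 2 than in knockout 3.

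The immunoproteasome genes Psmb8, Psmb9 and Psmb10, whose products replace those of Psmb5, Psmb6 and Psmb7 in that order, lay above the wild type array in all 3 knockout hearts by small amounts. So did 24.2% of all genes. Psmb9 read 7.71, 7.52 and 7.72 in knockout hearts, against 7.40 in the wild type heart (log2 fold change 0.25, SE 0.18, limma adjusted p = 0.954). Psmb10 read 8.34, 8.17 and 8.07 in knockout hearts, against 7.99 in the wild type heart (log2 fold change 0.20, SE 0.19, limma adjusted p = 0.965). Psmb8 read 6.91, 7.01 and 6.97 in knockout hearts, against 6.89 in the wild type heart, and its difference of 0.07 (SE 0.17) was the smallest of the 3. None of these differences passed the test (limma adjusted p from 0.954 to 0.997), and between knockout 3 and wild type 1 they were 0.08, 0.32 and 0.08 for Psmb8, Psmb9 and Psmb10. Psmb11, which encodes the catalytic subunit of the thymus proteasome and is not known as a heart gene, read 5.07, 4.90 and 4.65 in knockout hearts, against 5.22 in the wild type heart (log2 fold change -0.35, SE 0.21, limma adjusted p = 0.935).

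For the catalytic subunits that can be exchanged, RNA was read as the change, relative to the wild type array, of each immunoproteasome gene minus the gene of the subunit it replaces. The subunits held by the particles were not measured. For Psmb8 against Psmb5 this change was -0.15, -0.33 and 0.07 in knockouts 1, 2 and 3 (log2). For Psmb9 against Psmb6 it was 0.31, -0.11 and 0.57, and for Psmb10 against Psmb7 it was 0.55, -0.11 and 0.06. Knockout 2 was below zero in all 3 pairs, and no pair had all 3 knockout hearts on 1 side. The means of 0.26 ± 0.34 (SD, n = 3) for Psmb9 against Psmb6, 0.17 ± 0.34 for Psmb10 against Psmb7 and -0.14 ± 0.20 for Psmb8 against Psmb5 were each smaller than their spread between hearts.

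**Figure D3:**
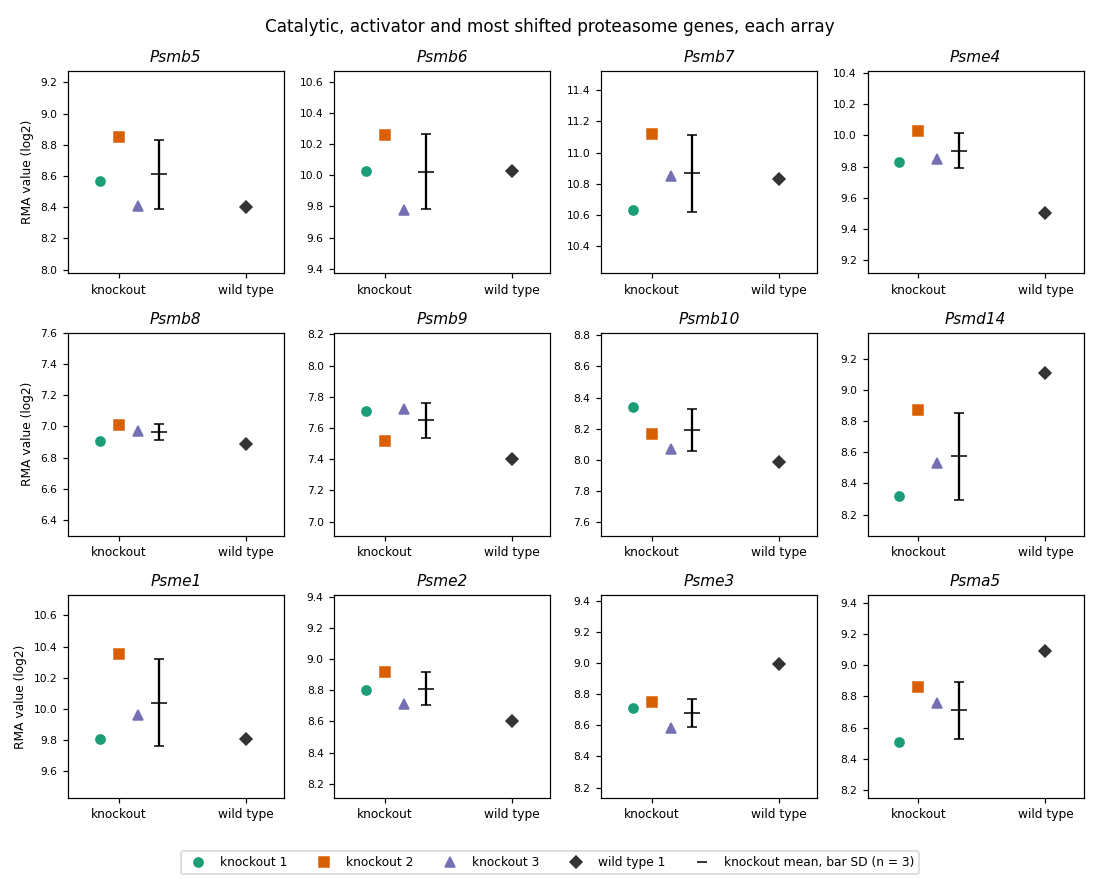
RMA values (y axis, log2, each panel spanning 1.3 units) of 12 proteasome genes in the 3 knockout hearts (left in each panel, with their mean and SD as a black bar) and the wild type heart (right). The wild type point lies below all knockout points for Psme4, Psmb5, Psmb8, Psmb9, Psmb10 and Psme2, above them for Psmd14, Psme3 and Psma5, among them for Psmb6 and Psmb7, and level with knockout 1 for Psme1.

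Activators that open the core without the regulatory particle gave the largest positive difference. Psme4, the gene of PA200, read 9.83, 10.03 and 9.85 in knockout hearts, against 9.50 in the wild type heart. The knockout hearts lay within 0.20 of one another and all above the wild type heart, with a log2 fold change of 0.40 (SE 0.18, 95% interval -0.02 to 0.83, limma adjusted p = 0.899). Between knockout 3 and wild type 1 alone the difference was 0.35. The PA28 subunits alpha and beta, which are induced by interferon together with the immunoproteasome, are encoded by Psme1 and Psme2. Psme2 read 8.80, 8.92 and 8.71 in knockout hearts, against 8.60 in the wild type heart (log2 fold change 0.21, SE 0.18, limma adjusted p = 0.965). Psme1 read 9.81, 10.35 and 9.96 in knockout hearts, against 9.81 in the wild type heart, so knockout 1 equalled the wild type value (log2 fold change 0.23, SE 0.24, limma adjusted p = 0.97). The nuclear activator gene Psme3, which encodes PA28 gamma, lay on the other side, at 8.71, 8.75 and 8.58 in knockout hearts, against 8.99 in the wild type heart (log2 fold change -0.31, SE 0.18, limma adjusted p = 0.935). Psmf1, which encodes the inhibitor PI31, read 7.14, 7.10 and 6.81 in knockout hearts, with the wild type heart among them at 6.91. Among the 5 activator and inhibitor genes 2 lay above the wild type value in each knockout heart (40%) and 1 below (20%). For all genes the share was 24.2% on each side.

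The lid, which removes ubiquitin chains, held the largest negative difference. Psmd14, the gene of the lid's deubiquitinating metalloprotease, read 8.32, 8.87 and 8.53 in knockout hearts, against 9.11 in the wild type heart. The knockout hearts spanned 0.55 and did not reach the wild type value, and the log2 fold change was -0.54 (SE 0.24, 95% interval -1.10 to 0.03, limma adjusted p = 0.899). Without knockout 2 it was -0.69 (limma adjusted p = 0.995), and between knockout 3 and wild type 1 it was -0.58. Psmd11 read 9.82, 10.07 and 9.74 in knockout hearts around 10.04 in the wild type heart (log2 fold change -0.16, SE 0.20). The other 7 lid genes with a Psmd symbol had log2 fold changes from -0.16 (Psmd11) to -0.04 (Psmd3 and Psmd7), each with knockout hearts on both sides of the wild type heart. Thus 1 of these 8 genes lay below the wild type value in each knockout heart (12.5%) and 0 above, against 24.2% of all genes on each side. The lid gene Sem1, outside the symbol pattern, was higher in each knockout heart (log2 fold change 0.34). Psmd6, another lid subunit, had the widest range among the lid genes, at 9.14, 9.57 and 8.97 in knockout hearts around 9.27 in the wild type heart. Psmd8 was the 1 lid gene that read higher in knockout 3 (10.07) than in knockouts 1 and 2 (9.90 and 9.82), with 10.05 in the wild type heart.

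The base consists of a ring of ATPases, encoded by Psmc1 to Psmc6, and of large scaffold and receptor subunits. Its 9 genes had a median log2 fold change of -0.07, with 2 below the wild type value in each knockout heart (22.2%) and 0 above. Of all genes 24.2% lay on each side. Psmc1 read 9.62, 9.55 and 9.29 in knockout hearts, against 9.64 in the wild type heart (log2 fold change -0.15, SE 0.20), while its dimmer probe set gave 0.08. Psmc4 read 8.75, 8.56 and 8.48 in knockout hearts, against 8.76 in the wild type heart (log2 fold change -0.16, SE 0.19). In both, knockout 1 lay within 0.02 of the wild type value. Psmd4, which encodes a receptor for ubiquitin chains, read 8.64, 8.76 and 8.39 in knockout hearts, against 8.40 in the wild type heart (log2 fold change 0.20, SE 0.20). Psmc6 had the widest range of the base, at 9.44, 10.35 and 9.82 in knockout hearts around 9.98 in the wild type heart. Psmc2 read 9.06, 9.17 and 8.65 in knockout hearts, with the wild type heart among them at 8.91 (log2 fold change 0.05, SE 0.24). The scaffold genes Psmd1 and Psmd2 had log2 fold changes of -0.07 and -0.02 (that of Psmd2 positive with centring or repeated quantile normalization), and Psmc3 and Psmc5 of 0.03 and -0.12. Between knockout 3 and wild type 1 alone the base median was -0.26, more negative than over all 3 knockout hearts, and all 9 genes read higher in knockout 2 than in knockout 3.

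Chaperones that build the base are encoded by Psmd5, Psmd9 and Psmd10. Psmd10, the gene of gankyrin, read 7.67, 8.07 and 7.76 in knockout hearts, against 8.06 in the wild type heart. Psmd5 read 7.01, 7.33 and 7.21 in knockout hearts, all below 7.40 in the wild type heart, and Psmd9 read 7.21, 7.12 and 7.21, all above 7.07. That put 1 of the 3 genes on each side (33.3%), where 24.2% of all genes lay on each. The log2 fold changes were -0.23, -0.22 and 0.11 for Psmd10, Psmd5 and Psmd9 with SEs of 0.21, 0.20 and 0.17 (limma adjusted p from 0.965 to 0.990). Of the genes that match by symbol alone, Psmc3ip read 6.08, 6.12 and 6.20 in knockout hearts around 6.16 in the wild type heart (log2 fold change -0.03, SE 0.17). Psme3ip1 read 7.71, 7.93 and 8.07 in knockout hearts, against 8.13 in the wild type heart, so the groups did not overlap (log2 fold change -0.23, SE 0.20). In both of these knockout 3, not knockout 2, was the highest knockout heart.

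Other genes of the pathway, from lists set beside the members, did not pass the test either. Among 13 further proteasome assembly and associated genes, 3 were lower (23.1%) and 4 higher (30.8%) than wild type in each knockout heart, against 24.2% of all genes on each side. Their median log2 fold change was -0.01, with 0 at an unadjusted limma p under 0.05. The largest difference was that of Sem1, which encodes a small lid subunit, at 10.51, 10.30 and 10.07 in knockout hearts, against 9.95 in the wild type heart (log2 fold change 0.34, SE 0.22). Pomp, the gene of the core maturation factor, read 10.10, 10.61 and 10.22 in knockout hearts and 10.39 in the wild type heart. Of 16 listed ubiquitin pathway and shuttle genes 9 were measured. In 8 of these the lowest value was in knockout 3 (88.9%), against 54.3% of the members and 24.2% of all genes. In each knockout heart 3 were lower than wild type (33.3%) and 1 higher (11.1%), against 24.2% of all genes on each side. The median log2 fold change of the 9 was -0.06. Uba6, an enzyme that activates ubiquitin, differed most, at 6.81, 6.58 and 6.32 in knockout hearts, against 7.0 in the wild type heart (log2 fold change -0.43, SE 0.23, limma adjusted p = 0.935). Nfe2l1 encodes the transcription factor Nrf1, which induces proteasome genes when proteasome activity drops, and read 10.15, 9.79 and 9.47 in knockout hearts around 9.61 in the wild type heart. Its relative Nfe2l2 read 9.39, 9.27 and 9.31 in knockout hearts, against 9.56 in the wild type heart (log2 fold change -0.24, SE 0.17). Both belong to a list of regulators of proteasome transcription, with 5 genes measured. Of these 5, 2 were below the wild type value in each knockout heart (40%) and 1, Ngly1, above (20%), against 24.2% of all genes on each side. The median log2 fold change of the list was -0.02.

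The genes of class I antigen processing, which use peptides cut by the proteasome, had 3 of 10 lower and 2 of 10 higher than wild type in each knockout heart. Of all genes 24.2% lay on each side, and the median of the class I genes was 0.09. Calr, the gene of the chaperone calreticulin, was the 1 of these at an unadjusted limma p under 0.05, at 9.71, 9.95 and 9.97 in knockout hearts, against 10.48 in the wild type heart (log2 fold change -0.60, SE 0.19, limma adjusted p = 0.682). In the reference gene order Psmb9, Tap1, Psmb8 and Tap2 follow one another on chromosome 17, Tap1 and Tap2 encoding the peptide transporter. Tap1 read 7.19, 6.61 and 6.97 in knockout hearts around 6.77 in the wild type heart, and Tap2 read 7.65, 7.29 and 7.36 around 7.31. Unlike the neighbouring Psmb8 and Psmb9, both had knockout 2 below the wild type value. Psme1 and Psme2 are separated by a single protein-coding gene, Emc9, on chromosome 14.

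Leukocytes express the immunoproteasome constitutively, so their markers are given beside it. All 14 measured leukocyte markers were lower in each knockout heart than in the wild type heart, against 24.2% of all genes. Of these markers 12 were at an unadjusted limma p under 0.05 and 0 at an adjusted p under 0.05. The median log2 fold change of all 14 was -1.07. Their summed level (linear scale) was 3196, 3749 and 5529 in knockouts 1, 2 and 3, against 7909 in wild type 1. Ccr2, a monocyte receptor gene, read 4.74, 5.21 and 6.16 in knockout hearts, against 7.39 in the wild type heart. Of the lymphocyte markers 7 of 10 measured genes passed the filter, with a summed level of 244.2, 261.3 and 277.6 in knockout hearts, against 258.4 in the wild type heart, and a median of 0.04. The summed level of Psmb8, Psmb9, Psmb10, Psme1 and Psme2 was 1997, 2390 and 2020 in knockout hearts, against 1827 in the wild type heart. Psme1, the brightest of these, read 9.81, 10.35 and 9.96 in knockout hearts, against 9.81 in the wild type heart, and weighs most in that sum. The immunoproteasome and thymus genes Psmb8 to Psmb11 alone summed to 687.3, 630.3 and 630.0, highest in knockout 1, against 579.0 in the wild type heart. The part of leukocyte content in the immunoproteasome values was not tested.

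**Figure D4:**
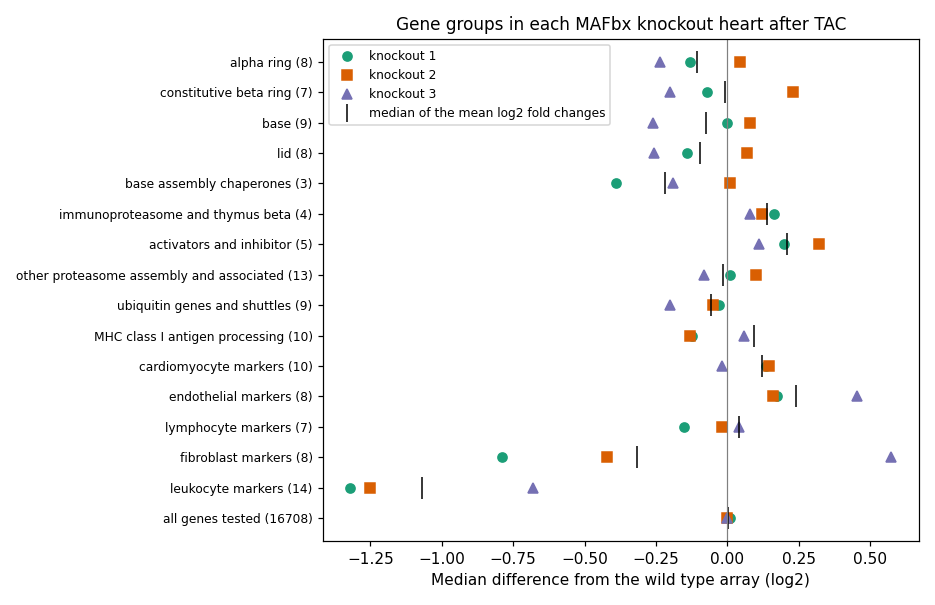
Median difference from the wild type heart (x axis, log2) of each proteasome class and companion list (rows, number of genes tested in brackets) in the 3 knockout hearts, with the median of the mean log2 fold changes as a black tick. Alpha ring, constitutive beta ring, base and lid run from knockout 3 on the left (-0.20 to -0.26) to knockout 2 on the right (0.05 to 0.23), whereas leukocyte markers lie left of zero in all 3 hearts.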

How the data were processed

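RNA of 4 mouse hearts was read on Mouse Gene ST arrays (Affymetrix), per the labels. What the authors deposited are log2 values per probe set from RMA in Expression Console, with no versions named in the submitters' processing notes. RMA subtracts background, equalizes the arrays' distributions and summarizes probes, which takes out any shift shared by most genes and compresses differences between dim genes.

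Of 35556 probe sets 21789 had 1 gene symbol, 1621 several and 12146 none in the platform annotation. The brightest probe set stood for a gene, and genes with a mean under 4.10, the 25th percentile of all probe sets, were left out, which left 16708. Genotypes were compared over all of these using lmFit and eBayes of limma (version 3.58.1, under R 4.3.3; two-sided, knockout minus wild type, Benjamini-Hochberg threshold 0.05), with 2 residual and 5.05 prior degrees of freedom. The fit was tested on simulated data. The number of arrays limits the precision. Lists were described by counts and medians, without a set test. Summed levels add the values after conversion to the linear scale.

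The members, lists and tests were chosen with earlier results of these data known. Values in full are given for Psmb5 to Psmb10, Psme1, Psme2, any member at an unadjusted p under 0.05 and, in each class, the 2 largest positive and 2 largest negative differences; Psmb4, Psmc6, Psmd6, Psmd8 and Psmf1 were added after their values were seen, as were Pomp, Nfe2l1, Nfe2l2, Tap1, Tap2, Myh6 and Ccr2 among other genes. Promoter windows are from RefSeq (GRCm38.p6); other coordinates are not printed because no source used here names the array's build. Alternatives were repeated quantile normalization, centring, other filters and probe set rules, other variance models, Xist level as a covariate and leaving out each knockout array.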

Additional observations from a re-analysis of the deposited data

How the results depend on the processing

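No paired analysis was possible because the labels name no pairs and there was 1 wild type array. No setting called a proteasome gene at an adjusted limma p under 0.05. The count of all genes called was 1, and 0 with repeated quantile normalization, without a filter and with Xist level as a covariate, 3 with the filter at the 50th percentile, 7 with centred arrays and with an intensity trend, 9 with robust eBayes, 0 without any 1 knockout array, and 3 with the dimmest probe set of each gene (an alternative chosen after seeing the data, like a filter over genes alone). Members at an unadjusted p under 0.05, 0 in the reported comparison, were 1 with repeated quantile normalization and with centring (Psme4), 1 with the Xist covariate (Psmb11), and 0 to 1 when a knockout array was left out (Psmd14 without knockout 2). Members below the wild type array throughout numbered 7 with centring, and ran from 13 to 23 when a knockout array was left out (23 without knockout 2), against 11 with all arrays. Members above it ran from 7 to 13 (13 without knockout 3), against 7, and numbered 10 with centring and with repeated quantile normalization. With fewer knockout arrays more of all genes lie on 1 side, from 31.3% to 34.9% below and from 30.1% to 35.3% above. The class medians kept within their spread between hearts except that of the immunoproteasome and thymus genes, 0.14, which was 0.20 with the filter at the 50th percentile and 0.08 with the Xist covariate, that of the base, -0.07, which was -0.26 with that covariate, and that of the activators and inhibitor, 0.21, which ran from 0.075 to 0.26 when a knockout array was left out (lowest without knockout 2). Every sign that turned among the 46 log2 fold changes under these settings follows. With the Xist covariate, which sets knockout 3 against wild type 1, the sign turned for Psma1 (-0.18), Psma8 (-0.34), Psmb1 (-0.20), Psmc2 (-0.26), Psmd4 (-0.01), Psmd8 (0.02), Psmf1 (-0.10) and Psmc3ip (0.04). With repeated quantile normalization and with centring it turned for Psmb6 (0.0675 and 0.03), Psmd2 (0.0575 and 0.02) and Psmc3ip (0.0033 and 0.01). With other probe sets it turned for Psmb3 (0.0083 with the mean, 0.12 with the dimmest), Psmc1 (0.08 with the dimmest) and Psmd2 (0.0033 with the dimmest). Over the arrays left out, values of both signs were seen for Psma1 (-0.11 to 0.105), Psma6 (-0.165 to 0.01), Psma8 (-0.08 to 0.42), Psmb3 (-0.22 to 0.01), Psmb6 (-0.125 to 0.115), Psmb7 (-0.09 to 0.155), Psmc2 (-0.055 to 0.205), Psmc6 (-0.35 to 0.105), Psmd1 (-0.15 to 0.06), Psmd2 (-0.155 to 0.085), Psmd3 (-0.13 to 0.025), Psmd6 (-0.215 to 0.085) and Psmd7 (-0.125 to 0.02). The filter at the 50th percentile left out Psmb11, so that class median was taken over Psmb8, Psmb9 and Psmb10. With the Xist covariate the class medians were those of knockout 3 minus wild type 1. Where arrays were left out, fewer arrays remained. The cause of these shifts was not tested beyond that.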

Other observations

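Several proteasome genes had more than 1 probe set, and these did not always agree. The 3 probe sets of Psma3 differed little, with knockout minus wild type differences of -0.31, -0.37 and -0.27 (log2). The dimmer probe set of Psma5 read 8.14, 8.66 and 8.26 in knockout hearts, against 8.51 in the wild type heart, a difference of -0.16 where the brighter gave -0.38, and its knockout 2 lay above the wild type value. For Psmb3 the brighter probe set gave -0.10 and the dimmer 0.12, and for Psmc1 they gave -0.15 and 0.08, so neither gene has a settled direction. Psmd2 gave -0.02 and 0.0033. A probe set annotated to both Psme2b and Psme2, left out of all comparisons, read 7.35, 7.70 and 7.38 in knockout hearts, against 7.37 in the wild type heart. The reference table also lists pseudogenes of Psma5, Psmb5, Psmb6 and Psmb7, and whether the probe sets tell these copies apart was not tested.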
